A study of Mus musculus with 8 samples.

Results

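The expression of 10 autophagy genes and MiT/TFE transcription factors was examined in brown adipose tissue (BAT) of WT and Ucp1Δ/Δ mice by bulk RNA-seq. They were taken by name from the 31053 genes of the deposited count table and comprise the transcription factors Tfeb, Tfe3 and Mitf, the autophagy initiation genes Ulk1 and Becn1, the genes Map1lc3a, Map1lc3b, Gabarap and Gabarapl1, and the receptor Sqstm1. All 10 had enough counts to be tested. Mitf and Gabarapl1 were higher in Ucp1Δ/Δ mice, Ulk1 was lower, and the other 7 genes did not pass the test.

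Macroautophagy encloses part of the cytoplasm, such as a worn mitochondrion or a lipid droplet, in a double membrane that then fuses with a lysosome. The ULK1 kinase complex starts the process, a lipid kinase complex built around BECN1 marks the site, and LC3 is attached to the growing membrane, where receptors such as SQSTM1 (p62) dock their cargo. TFEB, TFE3 and MITF are related helix-loop-helix factors that mTORC1 keeps in the cytoplasm when nutrients are plentiful and that switch on lysosomal and autophagy genes, the CLEAR network, once they enter the nucleus. Their control is therefore in large part by location and not by mRNA level. In brown fat, autophagy is known for removing mitochondria when thermogenic adipocytes become less active.

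BAT was collected from 4 WT and 4 Ucp1Δ/Δ C57BL6/J mice, which the labels give as 10 weeks old and the study's text as younger. The label ATGLKO and the name Ucp1Δ/Δ stand for the same animals, in which floxed Pnpla2 alleles, encoding the triglyceride lipase ATGL, are removed by a Cre recombinase driven by the Ucp1 promoter. The deletion is thus limited to thermogenic adipocytes, and macrophages, vessel cells and other cells of the depot keep the gene. Whether the WT mice carried floxed alleles or Cre is not given in the sources used here. No treatment is named for either genotype, apart from a fast before tissue harvest in the study's general animal methods. Whether that fast covered these mice is not stated. Libraries of WT mice held 2017697 to 3115956 counts and those of Ucp1Δ/Δ mice 2240612 to 2941799. Pnpla2 fell from 2913 ± 191 to 474 ± 59.2 CPM (SD, n = 4 per genotype), with CPM being counts scaled to a common library size (log2FC −2.62, SE 0.17, adjusted p = 1.97e-07 by edgeR's quasi-likelihood test).

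The labels name the stromal vascular fraction, the cells left once adipocytes have been floated off, but the brown adipocyte markers Ucp1, Adipoq, Plin1 and Cidea were abundant in all 8 mice. The summed level of 13 brown adipocyte markers was 14440 to 23274 CPM in WT and 10212 to 15186 CPM in Ucp1Δ/Δ mice (two-sided exact permutation test, p = 0.0571), with 5 of the 13 called lower and 1 higher. Markers of other cells moved with genotype as well. The 13 macrophage markers summed to 110 to 173 CPM in WT and 1061 to 1727 CPM in Ucp1Δ/Δ mice (exact permutation test, two-sided, p = 0.0286, the lowest that 4 mice against 4 allow), and all 11 of them with enough counts were higher, Adgre1 and Trem2 being at 0 in at least 1 mouse. All 6 fibroblast markers were also higher, with a sum of 340 to 534 CPM in WT and 1068 to 2163 CPM in Ucp1Δ/Δ mice, with an exact permutation p = 0.0286. Of 5 endothelial markers, 0 were called by edgeR or by DESeq2 and 2 had an unadjusted p under 0.05, their sum being 133 to 162 CPM in WT and 175 to 190 CPM in Ucp1Δ/Δ mice (exact permutation test, p = 0.0286). Skeletal muscle markers varied within both genotypes, from 27.7 to 1981 CPM in WT and from 91.5 to 2762 CPM in Ucp1Δ/Δ mice (exact permutation test, p = 0.629), and were highest in WT mouse 1 and Ucp1Δ/Δ mouse 2. Of the 11 tested, 0 were called by edgeR or DESeq2 and 0 had an unadjusted p under 0.05. In a bulk sample, fewer cells of a type and less RNA per cell cannot be told apart, and the part of these cell types in the results that follow was not tested.

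Of the 8930 genes tested, 21% were called in either direction at an adjusted p under 0.05, 13.3% higher and 7.63% lower in Ucp1Δ/Δ mice. Of the 10 autophagy and MiT/TFE genes, 2 were called higher and 1 lower. The median log2FC of the 10 genes was 0.14 and that of all genes tested −0.0087. In 3 of the 10, Tfeb, Ulk1 and Gabarapl1, no Ucp1Δ/Δ mouse overlapped a WT mouse, which was so for 23.7% of all genes tested. These counts are a description of a set of genes chosen for their function, with earlier results of these data known.

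**Figure D1:**
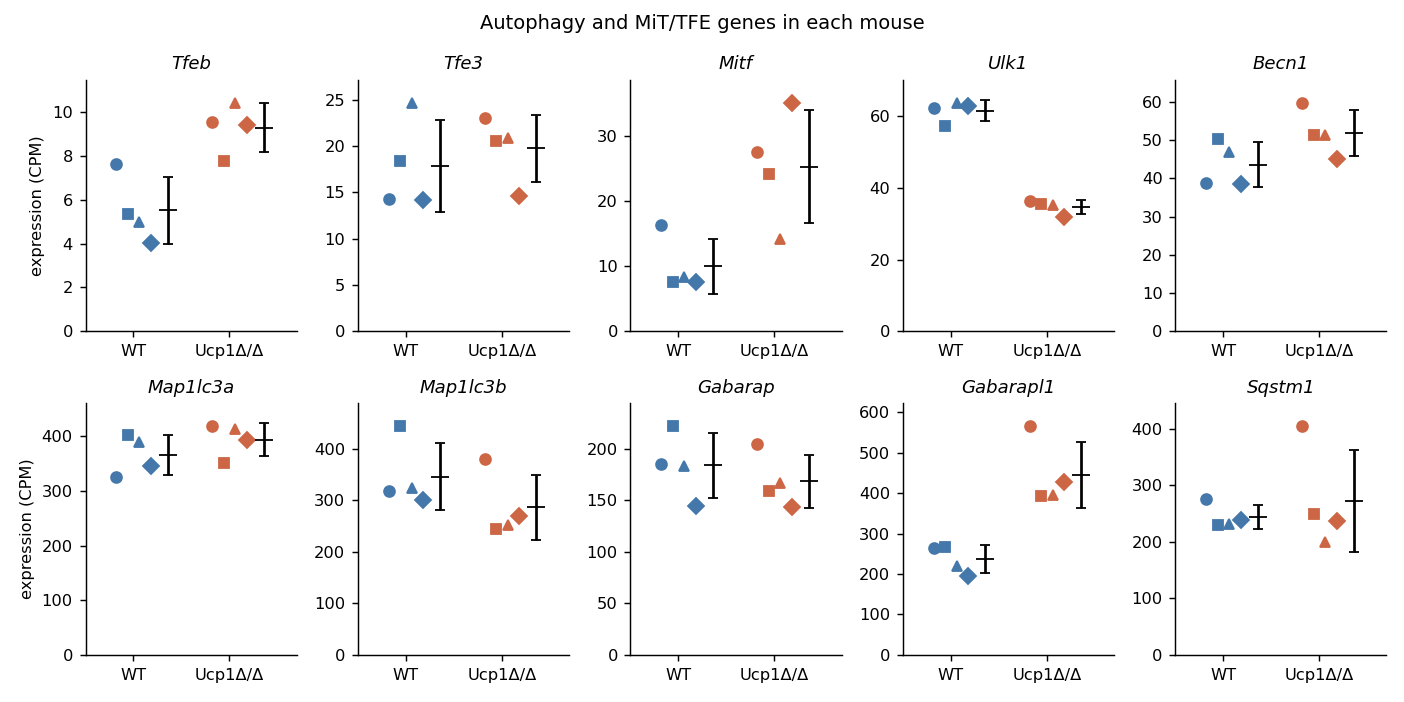
Expression of the 10 genes in CPM (y axis, starting at 0 in each panel) in each mouse of both genotypes (x axis). Each symbol is 1 mouse, its shape marking the replicate number only, and the black bar gives the mean with its SD (n = 4). Ulk1 was between 57.3 and 63.8 CPM in WT and between 31.8 and 36.4 CPM in Ucp1Δ/Δ mice, and Gabarapl1 lay above all WT values in every Ucp1Δ/Δ mouse.

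The sequences just upstream of the transcription starts of the 3 called genes were examined, since promoters of autophagy and lysosomal genes are often described by the E-box that MiT/TFE factors bind. RefSeq promoter windows (GRCm38.p6, the 250 bases before and 50 after a start) were at hand for 8 of the 10 genes, with 13 windows in all. The E-box CACGTG was in 0 of the 13, against 7.15% of all 32851 mouse windows of the same length, both strands being searched in each case. The FOXO element TGTTTAC was also in 0 of 13, against 3.65% of all windows. The GC box GGGCGG was in 9 of 13, against 35.7% of all windows, and these windows ranged from 40% to 70% in GC content with a median over all windows of 52.7%. The cAMP response element TGACGTCA, searched for after the sequences had been seen, was in 1 of 13, against 1.79% of all windows. A match of letters is a description and not a binding site, and the absence of a match concerns these windows only.

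The 250 bases upstream of the start are shown for the called genes, 5′ to 3′ on the strand of the gene, with GC boxes or the cAMP response element in capitals (on either strand, so that a GC box can read CCGCCC). Ulk1 is on the minus strand at chr5:110810082-110810331 and holds 5 GC boxes. Gabarapl1 is on the plus strand at chr6:129532942-129533191 and holds 2. Mitf has several starts far apart on the plus strand, of which the first, at chr6:97806808-97807057, holds 2 overlapping GC boxes and the last, at chr6:97991533-97991782, lies inside the longer transcripts and holds the cAMP response element. The window of Mitf between them held none of these letters. The counts pool all transcripts of a gene, so which Mitf start was used cannot be read from them.
Ulk1: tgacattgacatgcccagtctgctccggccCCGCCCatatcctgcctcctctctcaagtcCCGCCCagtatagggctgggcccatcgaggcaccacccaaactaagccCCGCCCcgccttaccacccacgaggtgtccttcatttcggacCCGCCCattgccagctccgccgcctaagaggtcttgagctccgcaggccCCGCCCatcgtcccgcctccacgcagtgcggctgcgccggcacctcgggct
Gabarapl1: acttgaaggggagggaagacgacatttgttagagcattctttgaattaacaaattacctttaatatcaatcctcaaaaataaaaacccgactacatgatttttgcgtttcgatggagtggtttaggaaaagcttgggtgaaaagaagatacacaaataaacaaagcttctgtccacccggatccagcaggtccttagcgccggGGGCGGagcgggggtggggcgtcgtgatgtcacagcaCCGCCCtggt
Mitf, first start: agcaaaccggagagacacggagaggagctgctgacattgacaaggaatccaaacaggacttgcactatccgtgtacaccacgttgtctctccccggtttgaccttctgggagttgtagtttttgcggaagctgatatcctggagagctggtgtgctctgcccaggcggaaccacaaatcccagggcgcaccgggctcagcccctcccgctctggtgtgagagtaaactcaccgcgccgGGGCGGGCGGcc
Mitf, last start: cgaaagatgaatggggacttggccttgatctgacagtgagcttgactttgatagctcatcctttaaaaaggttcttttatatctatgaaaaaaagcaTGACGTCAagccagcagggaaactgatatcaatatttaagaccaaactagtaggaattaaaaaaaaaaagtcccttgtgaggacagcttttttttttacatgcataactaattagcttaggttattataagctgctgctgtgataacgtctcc

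The MiT/TFE factors were then compared between genotypes. Mitf (ENSMUSG00000035158), on chromosome 6 from 97807052 to 98021349 (GRCm38), is the family member best known from melanocytes and osteoclasts and is also present in macrophages. Its level was 16.3, 7.62, 8.35 and 7.60 CPM in WT mice 1 to 4 and 27.6, 24.3, 14.2 and 35.2 CPM in Ucp1Δ/Δ mice 1 to 4. WT mouse 1 stood above the other WT mice and above Ucp1Δ/Δ mouse 3, so that the genotypes overlapped in this pair. The mean rose from 9.97 ± 4.25 to 25.3 ± 8.70 CPM, 254% of WT (log2FC 1.36, SE 0.31, adjusted p = 0.00485, edgeR). These levels rest on 15 to 32 counts per WT mouse and 34 to 82 counts per Ucp1Δ/Δ mouse, and the exact 95% Poisson interval of 15 counts is 8.4 to 24.7, for counting error only.

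Mitf was set beside the muscle markers in each mouse, and the orders agreed in some mice and not in others. WT mouse 1, the highest of its group in Mitf, had the highest muscle marker sum of the WT mice, and Ucp1Δ/Δ mouse 3, the lowest of its group, had the lowest muscle marker sum of the Ucp1Δ/Δ mice. In contrast, Ucp1Δ/Δ mouse 2 had the highest muscle marker sum of all mice (2762 CPM) but less Mitf than Ucp1Δ/Δ mice 1 and 4. Mitf counts were 78 in both Ucp1Δ/Δ mouse 1 and mouse 2. WT mouse 4 had a muscle marker sum of 940 CPM and WT mouse 2 one of 130 CPM. Their Mitf levels were nearly the same, 7.60 and 7.62 CPM, on 15 and 17 counts. With the muscle marker level as a covariate the log2FC of Mitf was 1.15 (adjusted p = 0.00502, edgeR), and without the 2 mice highest in muscle markers it was 1.71 (adjusted p = 0.00575, edgeR). With all mice and no covariate it was 1.36, so it was smaller with the covariate and larger without these libraries. Leaving out WT mouse 1 alone gave 1.66. Beyond these fits, the part of muscle RNA in the Mitf difference was not tested. The macrophage marker sum separated the genotypes completely, and within the Ucp1Δ/Δ mice it was highest in mouse 2 (1727 CPM), followed by mouse 1 (1376 CPM), mouse 4 (1108 CPM) and mouse 3 (1061 CPM), whereas Mitf was highest in mouse 4. Macrophage content as a part of the Mitf difference was not tested.

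**Figure D2:**
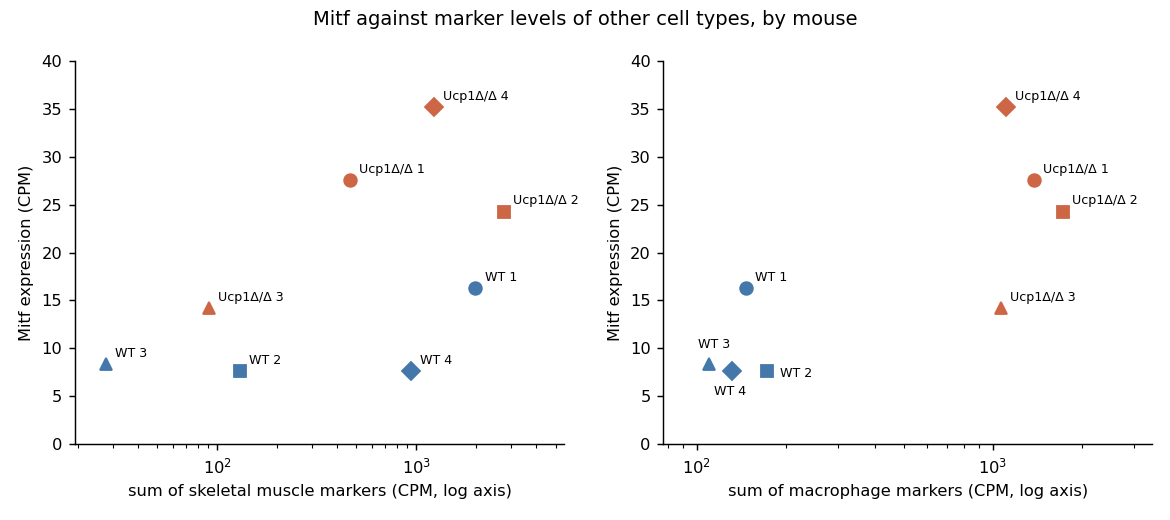
Mitf level in CPM (y axis) against the summed level of skeletal muscle markers (left) and of macrophage markers (right) in CPM on log axes. Each point is 1 mouse, blue for WT and orange for Ucp1Δ/Δ. WT mouse 1 (16.3 CPM Mitf) has the highest muscle sum of the WT mice, 1981 CPM, and the macrophage sums of the genotypes do not overlap.

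Tfeb (ENSMUSG00000023990), on chromosome 17 from 47737030 to 47792419, encodes the factor most often placed at the head of the lysosomal gene programme. It was at 7.65, 5.38, 5.01 and 4.05 CPM in WT mice and at 9.55, 7.78, 10.4 and 9.44 CPM in Ucp1Δ/Δ mice. Every Ucp1Δ/Δ mouse was above every WT mouse, but WT mouse 1 and Ucp1Δ/Δ mouse 2 were close together. The means were 5.52 ± 1.52 and 9.31 ± 1.11 CPM, and the log2FC of 0.75 (SE 0.28) did not pass the threshold. Its adjusted p was 0.0738 with edgeR. Tfeb had only 8 to 15 counts per WT mouse and 22 to 27 per Ucp1Δ/Δ mouse. It passed in 1 of 17 alternatives, that with libraries scaled by total counts only (log2FC 0.89, adjusted p = 0.0369, edgeR), a scaling that shifted the median of all genes to 0.13, and its log2FC was between 0.63 and 0.92 with 1 mouse left out at a time.

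Tfe3 (ENSMUSG00000000134), on chromosome X from 7762560 to 7775202, encodes a factor that shares most targets with TFEB. Its level was 14.3, 18.4, 24.7 and 14.2 CPM in WT mice and 23.0, 20.5, 20.9 and 14.6 CPM in Ucp1Δ/Δ mice. The ranges lay over each other, and the highest value of all belonged to WT mouse 3. The log2FC was 0.13 (SE 0.23, adjusted p = 0.753, edgeR). Tfec, the last gene of the family, was at 0 CPM in all WT mice and at a mean of 0.367 CPM in Ucp1Δ/Δ mice and was not tested.

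Among the genes of initiation, Ulk1 (ENSMUSG00000029512), on chromosome 5 from 110784488 to 110810097, encodes the kinase that AMPK activates and mTORC1 restrains. It was at 62.2, 57.3, 63.8 and 62.8 CPM in WT mice and at 36.4, 35.5, 35.1 and 31.8 CPM in Ucp1Δ/Δ mice. Both groups were tight, and the lowest WT mouse was far above the highest Ucp1Δ/Δ mouse. The mean fell from 61.5 ± 2.87 to 34.7 ± 2.03 CPM, 56.4% of WT (log2FC −0.82, SE 0.16, adjusted p = 0.00122, edgeR). Counts were 122 to 191 in WT and 74 to 114 in Ucp1Δ/Δ mice. The fall passed the threshold in 18 of 18 alternatives, and leaving out 1 mouse at a time gave a log2FC between −0.87 and −0.79. It was also −0.82 with the muscle marker level as a covariate. The summed level of brown adipocyte markers was 64.5% of WT in the same Ucp1Δ/Δ mice. The median log2FC of these 13 markers was −0.36, with 5 called lower, 1 higher and 7 not called. Their part in the fall of Ulk1 was not tested.

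Becn1 (ENSMUSG00000035086), on chromosome 11 from 101285952 to 101302286, encodes the scaffold of the class III phosphoinositide 3-kinase that produces the lipid signal for membrane growth. It was at 38.8, 50.2, 46.8 and 38.5 CPM in WT mice and at 59.8, 51.3, 51.4 and 45.1 CPM in Ucp1Δ/Δ mice. Of the Ucp1Δ/Δ mice, 3 were above every WT mouse and mouse 4 was within the WT range. The log2FC was 0.25 (SE 0.17, adjusted p = 0.337, edgeR). Becn1 shares bases with Cntd1 on the opposite strand, and whether the counting used strand is not given in the sources used here, but Cntd1 had only 26 counts over all mice against 966 for Becn1.

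**Figure D3:**
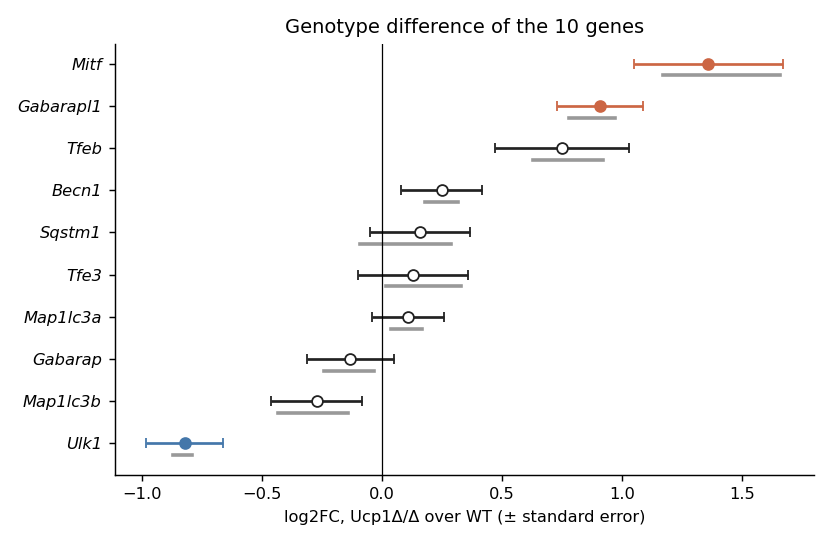
log2FC of Ucp1Δ/Δ over WT (x axis) for the 10 genes (y axis), with the standard error as bars. Filled symbols passed an adjusted p of 0.05, orange for higher and blue for lower, open symbols did not, and the grey line under each gives the range with 1 mouse left out at a time. The ranges are 1.17 to 1.66 for Mitf, 0.78 to 0.97 for Gabarapl1 and −0.87 to −0.79 for Ulk1. Only that of Sqstm1 crosses 0, so genes that did not pass, such as Tfeb (0.63 to 0.92), also kept their sign.

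Gabarapl1 (ENSMUSG00000030161), on chromosome 6 from 129533160 to 129542346, was at 265, 267, 221 and 196 CPM in WT mice and at 565, 394, 396 and 427 CPM in Ucp1Δ/Δ mice. The groups were well apart, and Ucp1Δ/Δ mouse 1 was the highest of all. The mean rose from 237 ± 35.0 to 445 ± 81.4 CPM, 188% of WT (log2FC 0.91, SE 0.18, adjusted p = 0.00169, edgeR), and the difference passed in 18 of 18 alternatives. With 386 to 662 counts in WT and 947 to 1598 in Ucp1Δ/Δ mice, it was the most deeply counted of the 3 called genes. It overlaps the processed transcript 1700101I11Rik on the opposite strand, which was not analysed here.

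Map1lc3a (ENSMUSG00000027602) on chromosome 2, from 155276297 to 155278073, was at 325, 402, 389 and 345 CPM in WT mice and at 418, 350, 412 and 394 CPM in Ucp1Δ/Δ mice. The values were mixed between genotypes (log2FC 0.11, SE 0.15, adjusted p = 0.681, edgeR). Map1lc3b (ENSMUSG00000031812) on chromosome 8, from 121590361 to 121598760, whose lipid-bound protein LC3-II is the usual readout of autophagosomes, was at 317, 444, 324 and 300 CPM in WT mice and at 379, 244, 253 and 270 CPM in Ucp1Δ/Δ mice. In 3 of the 4 Ucp1Δ/Δ mice it was below all WT mice, and in Ucp1Δ/Δ mouse 1 only WT mouse 2 was higher (log2FC −0.27, SE 0.19, adjusted p = 0.350, edgeR). Gabarap (ENSMUSG00000018567) on chromosome 11, from 69991143 to 69994951, was at 186, 222, 184 and 144 CPM in WT mice and at 204, 159, 167 and 144 CPM in Ucp1Δ/Δ mice. Its groups covered nearly the same range (log2FC −0.13, SE 0.18, adjusted p = 0.672, edgeR), and with libraries scaled by total counts only the log2FC was 0.01. Map1lc3b shares bases with Zcchc14 on the opposite strand, which had 98 counts over all mice against 6262.

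Sqstm1 (ENSMUSG00000015837), on chromosome 11 from 50199366 to 50210827, encodes p62, which binds ubiquitin on cargo and LC3 on the membrane and is itself degraded by autophagy. It was at 276, 230, 231 and 239 CPM in WT mice and at 405, 249, 200 and 237 CPM in Ucp1Δ/Δ mice. Ucp1Δ/Δ mouse 1 stood above all other mice, and the other Ucp1Δ/Δ mice were within or below the WT range. The mean was 244 ± 21.5 CPM in WT and 272 ± 90.6 CPM in Ucp1Δ/Δ mice (log2FC 0.16, SE 0.21, adjusted p = 0.638, edgeR), and without Ucp1Δ/Δ mouse 1 the log2FC was −0.089, so that the direction rests on this mouse. Sqstm1 shares bases with Mrnip on the opposite strand, which had 75 counts over all mice against 5193.

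The rest of the autophagy machinery was examined in 52 further genes, of which 48 could be tested. Of these, 3 were higher and 1 lower in Ucp1Δ/Δ mice, against 13.3% and 7.63% of all genes tested. The median log2FC of the 48 was −0.09, against −0.0087 over all genes tested, and 20 were above 0. In the ULK complex, Atg101, which stabilises ATG13, rose from 87.8 ± 17.3 to 148 ± 43.5 CPM (log2FC 0.75, SE 0.22, adjusted p = 0.0236, edgeR). Ulk2, the relative of Ulk1, was at 21.9 ± 4.98 CPM in WT and 29.0 ± 0.497 CPM in Ucp1Δ/Δ mice and did not pass the test (log2FC 0.39, SE 0.20, adjusted p = 0.180, edgeR). Of 7 genes of the class III phosphoinositide 3-kinase complex, 0 were called by edgeR or DESeq2 and 3 had an unadjusted p under 0.05, the median log2FC being 0.34.

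Among 9 tested genes of membrane supply and phosphoinositide binding, 1 rose and 1 fell. They are related WIPI genes, whose products bind the lipid made by the BECN1 complex. Wipi1 rose from 32.3 ± 8.99 to 52.6 ± 12.1 CPM (log2FC 0.70, SE 0.22, adjusted p = 0.0348, edgeR), and Wdr45b fell from 47.2 ± 4.00 to 31.9 ± 4.18 CPM (log2FC −0.56, SE 0.17, adjusted p = 0.0287, edgeR). The 11 genes of the conjugation step of autophagy, such as Atg3, Atg5 and Atg7, gave 0 calls with edgeR or DESeq2, and 1 had an unadjusted p under 0.05. Of these 11, 10 had a log2FC below 0, with a median of −0.39 and values from −0.58 to 0.26. The median over all genes tested was −0.0087, and whether the 11 differ from it as a set was not tested. Of 10 tested receptors, Wdfy3 (ALFY), an adaptor for protein aggregates, rose from 10.0 ± 3.56 to 17.6 ± 1.12 CPM (log2FC 0.79, SE 0.25, adjusted p = 0.0370, edgeR). Of the 6 tested genes of fusion with the lysosome, 0 were called by edgeR or DESeq2 and 0 had an unadjusted p under 0.05. Each of the 4 calls was lost in several of the 8 repeats with 1 mouse left out.

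A further list held 24 genes, namely Tfec and the regulators that decide where MiT/TFE factors reside, of which 20 could be tested. Of these, 1 was higher and 1 lower, against 13.3% and 7.63% of all genes tested. A log2FC below 0 was found for 15, and the median was −0.23, against −0.0087 over all genes tested. Deptor, an inhibitory partner of mTOR, rose from 285 ± 46.4 to 558 ± 56.8 CPM (log2FC 0.97, SE 0.17, adjusted p = 0.000655, edgeR) and passed in 18 of 18 alternatives. Mtor itself was at 58.4 ± 11.2 and 45.3 ± 7.92 CPM and Rptor at 12.1 ± 3.73 and 13.3 ± 1.77 CPM in WT and Ucp1Δ/Δ mice, and neither passed. Prkab1, a beta subunit of AMPK, the energy sensor upstream of ULK1, fell from 9.28 ± 2.46 to 4.37 ± 0.972 CPM (log2FC −1.09, SE 0.30, adjusted p = 0.0186, edgeR). This call rests on 13 to 28 counts per WT mouse and 8 to 15 per Ucp1Δ/Δ mouse, and it was lost without WT mouse 2 or without Ucp1Δ/Δ mouse 1 or 3, the adjusted p reaching 0.0556. The catalytic AMPK subunit genes Prkaa1 and Prkaa2 did not pass, and neither did Flcn and Fnip1 of the folliculin complex, which lets mTORC1 act on TFEB and TFE3. Their partner Fnip2 had too few counts for the edgeR test, with 2.12 ± 1.13 CPM in WT and 6.84 ± 2.72 CPM in Ucp1Δ/Δ mice, and was called by DESeq2, which filters genes in another way.

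Among 23 lysosomal genes known as CLEAR targets of MiT/TFE factors, 21 could be tested, with a median log2FC of 0.13. Called higher were 5 and lower 1, against 13.3% and 7.63% of all genes tested. Ctsa, which protects other lysosomal hydrolases, rose from 31.7 ± 12.1 to 69.6 ± 6.08 CPM (log2FC 1.14, SE 0.23, adjusted p = 0.00201, edgeR). Naglu (log2FC 0.90, adjusted p = 0.0185, edgeR) and Sgsh (log2FC 0.71, adjusted p = 0.0465, edgeR), both for heparan sulfate breakdown, were closer to the threshold. Naglu passed in 13 of 18 alternatives and Sgsh in 6 of 18, and both calls were lost with several of the mice left out in turn. Atp6v0e, a small membrane subunit of the lysosomal proton pump, fell from 250 ± 32.8 to 152 ± 20.7 CPM (log2FC −0.71, SE 0.17, adjusted p = 0.00653, edgeR).

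Of the more abundant genes of this list, 4 further ones did not pass the test. Psap was at 369 ± 79.0 CPM in WT and 568 ± 165 CPM in Ucp1Δ/Δ mice (log2FC 0.62, SE 0.22, adjusted p = 0.0532, edgeR) and passed in 5 of 18 alternatives. Ctsd was at 850 ± 191 and 864 ± 176 CPM, Ctsb at 600 ± 192 and 589 ± 82.4 CPM, and Lamp1 at 459 ± 66.3 and 515 ± 66.0 CPM in WT and Ucp1Δ/Δ mice. Macrophages also express lysosomal hydrolases, and the macrophage marker sum of 110 to 173 CPM in WT and 1061 to 1727 CPM in Ucp1Δ/Δ mice moved in the same direction as the 5 genes that rose. Its part in their rise was not tested.

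**Figure D4:**
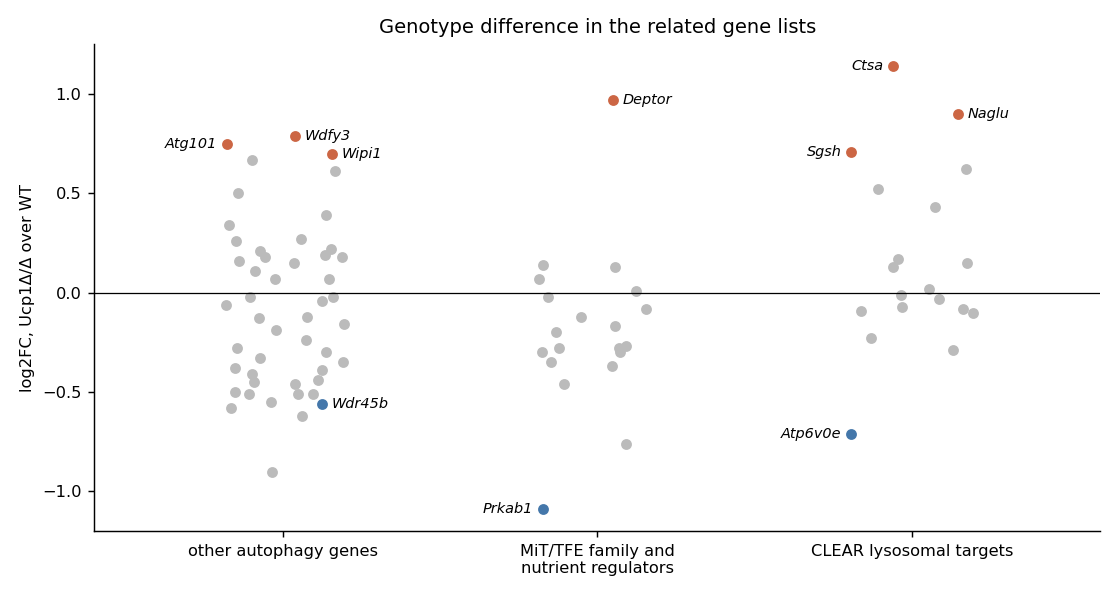
log2FC of Ucp1Δ/Δ over WT (y axis) for tested genes of 3 related lists (x axis: other autophagy genes, MiT/TFE regulators and CLEAR lysosomal targets). Orange and blue points passed an adjusted p of 0.05 as higher or lower and are named, and grey points did not. Among the genes plotted, Ctsa is the highest at 1.14 and Prkab1 the lowest at −1.09. Called genes that are not reported by name are left out of the plot.

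The genes whose pattern over the 8 mice was most like that of the called genes were found by the root mean square difference of centred log2 CPM, among 6428 tested genes with a mean of at least 10 CPM. For Ulk1 they were Slc25a35 (difference 0.080), a mitochondrial carrier, Gbe1 (0.099), the glycogen branching enzyme, and Prkrip1 (0.10). Those of Gabarapl1 were Cenpb (0.12), Map7d1 (0.12) and Lmo4 (0.13). For Mitf they were Hspb1 (0.23), a small heat shock protein, Rnase4 (0.27) and Got1 (0.27), an aspartate aminotransferase. Mitf was therefore less closely matched than Ulk1 and Gabarapl1. The measure is a description over 8 mice, and genes with a like difference between genotypes and little spread come out near by construction.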

How the data were processed

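Bulk RNA-seq of BAT from 4 WT and 4 Ucp1Δ/Δ mice was sequenced from a single end by a provider of digital mRNA-seq. Per the study's methods the authors used bbduk for trimming, STAR for alignment to mm10, HTseq-counts for counting and DESeq2 for the comparison. The submitters' processing notes also name DESeq2 and GRCm38/mm10, but Trimmomatic and HISAT2 for trimming and alignment, which the study's software list holds too, and which of these tools made the counts is not settled here. The annotation release, the strand setting and the handling of reads that match several places are not given in the sources used here. The deposited values are whole-number counts per Ensembl gene, without normalization. The authors also deposited log2 values, made by dividing the counts of each mouse by 1 factor, adding 1 and taking logs, which served for 1 alternative. A sheet of sample attributes was not used.

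Symbols and positions came from GENCODE (GRCm38), with 30934 of 31053 genes matched, and promoter windows from RefSeq (GRCm38.p6). In R 4.3.3, counts were filtered with filterByExpr at its defaults, which left 8930 genes, scaled by TMM and tested on genotype with the quasi-likelihood test of edgeR 4.0.16, with Benjamini-Hochberg adjustment over all genes tested. Log2 CPM used a prior count of 2. Standard errors are the log2FC over the square root of F. Alternatives used DESeq2 1.42.0 and limma 3.58.1, other scaling, filters of 1 count in any mouse or 10 counts in every mouse, a replicate block and each mouse left out. A muscle marker covariate and the removal of the 2 mice highest in muscle markers were chosen after seeing the data. The fits were tested on simulated data.

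Replicate numbers, taken from the sample titles, name different animals, and the p-values of edgeR set the genotype difference against the spread between these mice. The chi-square per degree of freedom between mice of 1 genotype was 5.18 to 27.1, so none was counted as a duplicate. The genes and lists were chosen with earlier results of these data known. Named in the text were all 10 genes, Pnpla2, up to 6 called genes per list and direction with the smallest adjusted p, and the 3 nearest genes of each of the 3 members with the smallest adjusted p. Other genes named from the lists (Ulk2, Mtor, Rptor, Prkaa1, Prkaa2, Flcn, Fnip1, Fnip2, Ctsd, Ctsb, Lamp1, Psap, Tfec, Atg3, Atg5, Atg7) were chosen after their values were seen. Some called genes that this rule selects are not reported here by name, but the counts and medians of their list include them. Sums of marker lists were compared with two-sided exact permutation tests over mice.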

Additional observations from a re-analysis of the deposited data

Results flagged for a closer look

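Mitf in WT mouse 1 stood apart from the other WT mice. Its log2 CPM was 4.10, against 3.07 to 3.19 in the other 3 WT mice, and the gap took 0.88 of the range of the group, above Dixon's critical value for 4 samples. Of 46 groups examined in this way 1 stood apart, and chance would flag 2.3. This mouse also had the highest muscle marker sum of the WT mice, and the part of muscle RNA in its Mitf level was not tested.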

How the results depend on the processing

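Mitf, Gabarapl1 and Ulk1 kept their direction and passed in all 18 alternatives, with log2FC of 1.15 to 1.71, 0.78 to 1.04 and −0.87 to −0.69. Among the other 7 members, Tfeb passed with total counts only, and Gabarap (0.01 with total counts only) and Sqstm1 (−0.089 to 0.29 with 1 mouse left out, below 0 without Ucp1Δ/Δ mouse 1) changed sign without passing. With the replicate block, 1719 genes were called, and the log2FC was 1.32 for Mitf, 0.90 for Gabarapl1 and −0.82 for Ulk1, while Wdr45b and Sgsh were no longer called (adjusted p = 0.0531 for each, edgeR). The replicate numbers did not pair the mice (correlations of −0.0873, −0.196, 0.304 and 0.241). Genes called in all fell from 1872 to 1195 with at least 10 counts in every mouse, where Tfeb could not be tested, and to 1095 without the 2 mice highest in muscle markers, with fewer genes and fewer mice by construction. Calls in the lists depended on settings more. Other autophagy genes called higher (3) were 0 to 2 with 1 mouse left out and 1 without both muscle-rich mice. Those called lower (1) were 0 with total counts only, the replicate block, at least 10 counts in every mouse or both muscle-rich mice out, 2 with limma voom, 3 with at least 1 count in any mouse, and 0 to 2 with 1 mouse left out. Regulators called higher (1) were 2 with DESeq2's Wald test or at least 1 count in any mouse and 1 to 2 with 1 mouse left out. Those called lower (1) were 0 at 10 counts in every mouse, where Prkab1 could not be tested, and 0 to 1 with 1 mouse left out. CLEAR targets called higher (5) were 3 to 6 with 1 mouse left out, 3 being without Ucp1Δ/Δ mouse 2, and 3 without both muscle-rich mice, where the lower 1 became 0. Single calls were lost without WT mice 1 or 4 or Ucp1Δ/Δ mice 1 or 3 (Atg101), WT mice 2, 3 or 4 or Ucp1Δ/Δ mice 1, 3 or 4 (Wipi1), any mouse but WT mouse 3 (Wdfy3), WT mouse 3 or Ucp1Δ/Δ mice 3 or 4 (Wdr45b), WT mouse 2 or Ucp1Δ/Δ mice 1 or 3 (Prkab1), WT mice 1 or 3 or Ucp1Δ/Δ mouse 2 (Naglu), and any mouse but WT mouse 3 or Ucp1Δ/Δ mouse 4 (Sgsh). The cause of these changes was not tested. Depth was low for Tfeb, with 8 to 27 counts per mouse.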
